A study of Mus musculus with 8 samples.

Results

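The glutathione peroxidases described here are 6 genes, Gpx1, Gpx2, Gpx3, Gpx4, Gpx7 and Gpx8, of 32301 genes and unnamed accessions on the array. They were chosen by name, as the array probes whose RefSeq accession belongs to a listed family member. Each had 1 probe, and all 6 passed the filter on dim probes. RNA was profiled on 8 mouse arrays of 1 colour, 2 per group, from mouse embryonic fibroblasts (MEFs). The groups were Keap1–/– cells (Keap1 null) grown as allografts in nude mice, Keap1 null cells grown on dishes, wild-type (WT) cells grown as allografts, and WT cells grown on dishes. The labels mark both lines with TR and give no meaning for it. Each genotype is represented by 1 line, so genotype and line cannot be told apart. Allografts came from 3000000 Keap1 null cells or 10000000 WT cells and were harvested at 100 to 150 mm3, and they hold cells of the nude mouse host as well. The labels do not say whether replicates came from separate cultures or animals, so p-values measure the spread between these arrays, which may be technical.

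Glutathione peroxidases reduce hydrogen peroxide and organic hydroperoxides to water or alcohols, most of them at the expense of reduced glutathione, which glutathione reductase restores with NADPH. In the mouse, Gpx1 to Gpx4 carry selenocysteine at the active site, whereas Gpx7 and Gpx8 carry cysteine and reside in the endoplasmic reticulum (ER), where oxidised peroxidases can pass disulphides to protein disulphide isomerases. KEAP1 is the adaptor that marks the transcription factor NRF2 (gene Nfe2l2) for degradation, and NRF2 drives many genes of glutathione supply.

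Levels are scaled log2 signals: each array's 75th percentile is set to 0. They compare 1 gene across arrays and cannot be set against each other between genes. The share of probes well above background ran from 60.6% to 74.7% over the arrays, and saturation affected no spot. Of the fibroblast markers, 10 of 10 were well above background in both allograft groups, 9 of 10 in Keap1 null dishes (Fap was not) and 8 of 10 in WT dishes (Lum and Fap were not). The Keap1 probe had less signal in Keap1 null cells in both growths (log2 fold change -1.69 in allografts and -0.86 in dishes, limma adjusted p = 0.000722 and 0.0197) but stayed well above background. Whether this probe lies in the deleted part of Keap1 was not tested.

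**Figure D1:**
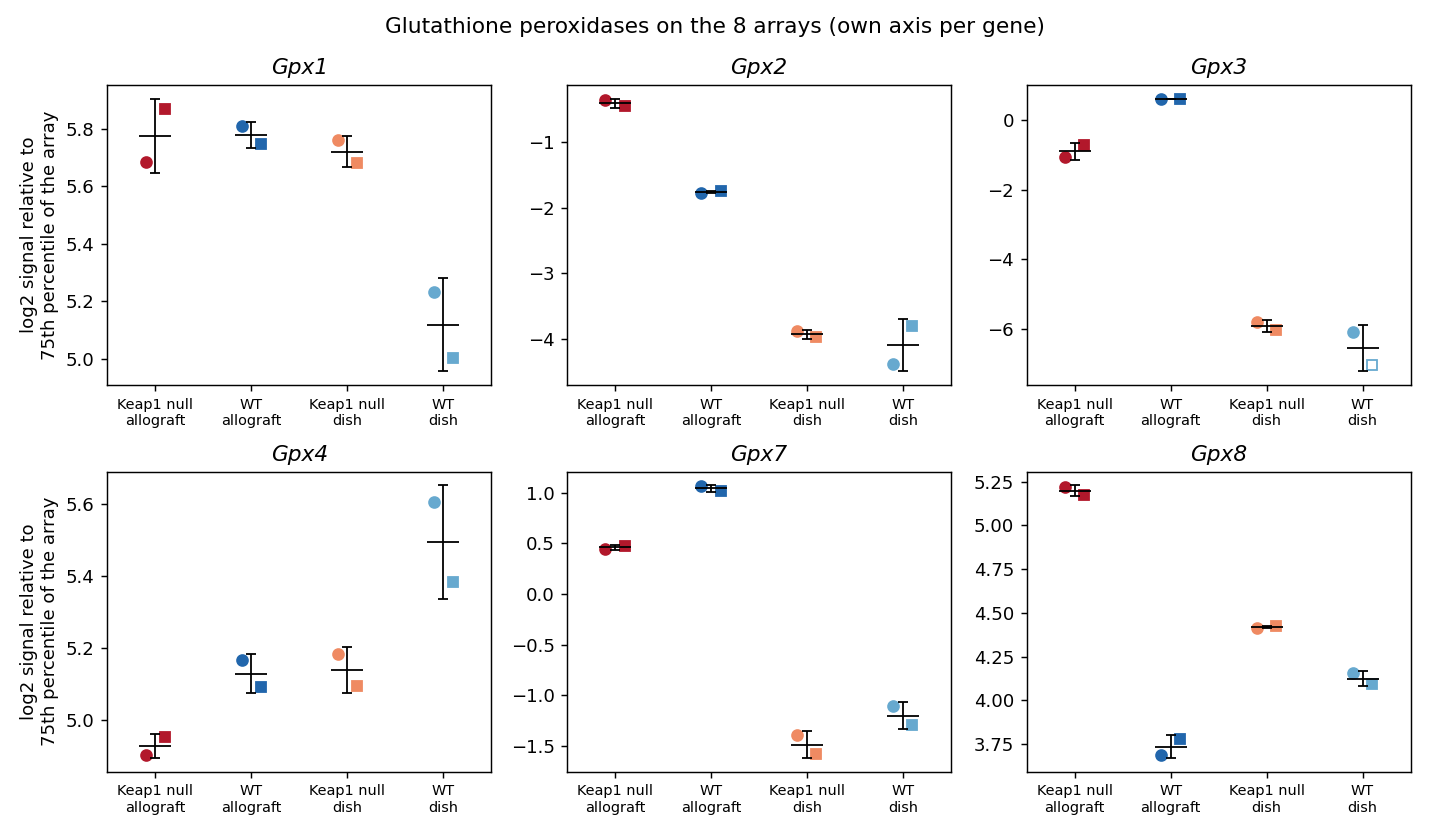
Scaled log2 levels of the 6 glutathione peroxidases on all 8 arrays. Circles are replicate 1 and squares replicate 2, the open symbol is the array on which Gpx3 was not well above background, and bars show mean ± SD (n = 2). Gpx2, Gpx3 and Gpx7 lie higher in both allograft groups than in either dish group, and Gpx8 is highest in Keap1 null allografts and lowest in WT allografts.

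Gpx3 encodes the secreted peroxidase of plasma and extracellular fluid, and it moved most between dish and allograft. Its processed signal was 701 and 711 in Keap1 null allografts, against 23.8 and 18.7 in Keap1 null dishes. In WT cells it was 2331 and 2358 in allografts, against 15.8 and 9.66 in dishes, where 1 of 2 arrays was well above background. Dish cultures of both lines were dim for this probe, and every allograft array was far above every dish array. On the scaled log2 level Gpx3 lay at -1.06 and -0.71 in Keap1 null allografts and at 0.62 and 0.61 in WT allografts. The rise in allografts over dishes was 32.8-fold in Keap1 null cells (log2 fold change 5.04, 95% interval 4.27 to 5.80, limma adjusted p = 4.87e-05) and 145-fold in WT cells (7.18, 6.42 to 7.95, adjusted p = 1.2e-05). Of 22919 targets tested, 2.46% changed more in Keap1 null cells and 1.1% changed more in WT cells. With normexp background correction, which adds an offset to every spot and so compresses dim ones most, the rises were 2.96 and 4.45 on the log2 scale.

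In allografts, Gpx3 was 2.84-fold lower in the Keap1 null tumours than in WT ones (limma adjusted p = 0.0111, log2 fold change -1.50 ± 0.31 SE), and the arrays of the 2 groups did not overlap. The call ended without Keap1 null allograft replicate 1 (adjusted p = 0.0619) and without WT allograft replicate 1 or replicate 2 (0.0522 in either case). In dishes the order was the other way, with scaled log2 levels of -5.81 and -6.04 in Keap1 null against -6.10 and -7.03 in WT, and the difference did not pass the test (0.64 ± 0.31, limma adjusted p = 0.22). It passed without WT dish replicate 1 (1.11, adjusted p = 0.0283), which left in WT the array that was not well above background. The ranking of group means for Gpx3 was therefore WT allograft, Keap1 null allograft, Keap1 null dish and WT dish, with only the dish pair not separated by the test.

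Markers of host cells followed the same order of groups as Gpx3 in part. The summed level of 11 macrophage markers was 21.4 to 21.8 in Keap1 null allografts and 82.6 to 92.6 in WT allografts, with 11 of 11 well above background in both, against 1.73 to 1.79 in Keap1 null dishes and 2.30 to 2.69 in WT dishes. Of these, Adgre1, Itgam, C1qc, Ccr2, Lyz2 and Fcgr1 failed the background test on every dish array, where Cd14 made up most of the sum. Between Keap1 null and WT tumours, 10 of 11 were lower and 1 was higher. Of all targets, 21.3% were called lower and 20.5% higher. The part of the macrophage markers in the Gpx3 difference was not tested. In whole tissue, fewer cells of a type and less RNA per cell cannot be told apart. Adipocytes are also known to make Gpx3. Their 10 markers summed to 16.6 and 19.5 in Keap1 null allografts and to 19.6 and 6.39 in WT allografts, and their part in Gpx3 was not tested either. Fabp4 made up most of each allograft sum and was well above background in dishes too. Adipoq lay at scaled log2 levels of -3.62 and -2.68 in Keap1 null allografts and -1.83 and -5.78 in WT allografts. Adipoq, Cfd, Plin1, Retn, Lep and Car3 were not well above background in either dish group. Some other host markers were also lower in Keap1 null than in WT tumours. Of 8 lymphocyte markers, 5 were lower and none higher, with sums of 0.187 to 0.316 against 1.22 to 1.64. Of 8 endothelial markers, 4 were lower and none higher, with sums of 11.3 to 12.4 against 15.8 to 16.2. No skeletal muscle or red cell marker was called there. The part of these lists in the Gpx3 difference was not tested.

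**Figure D2:**
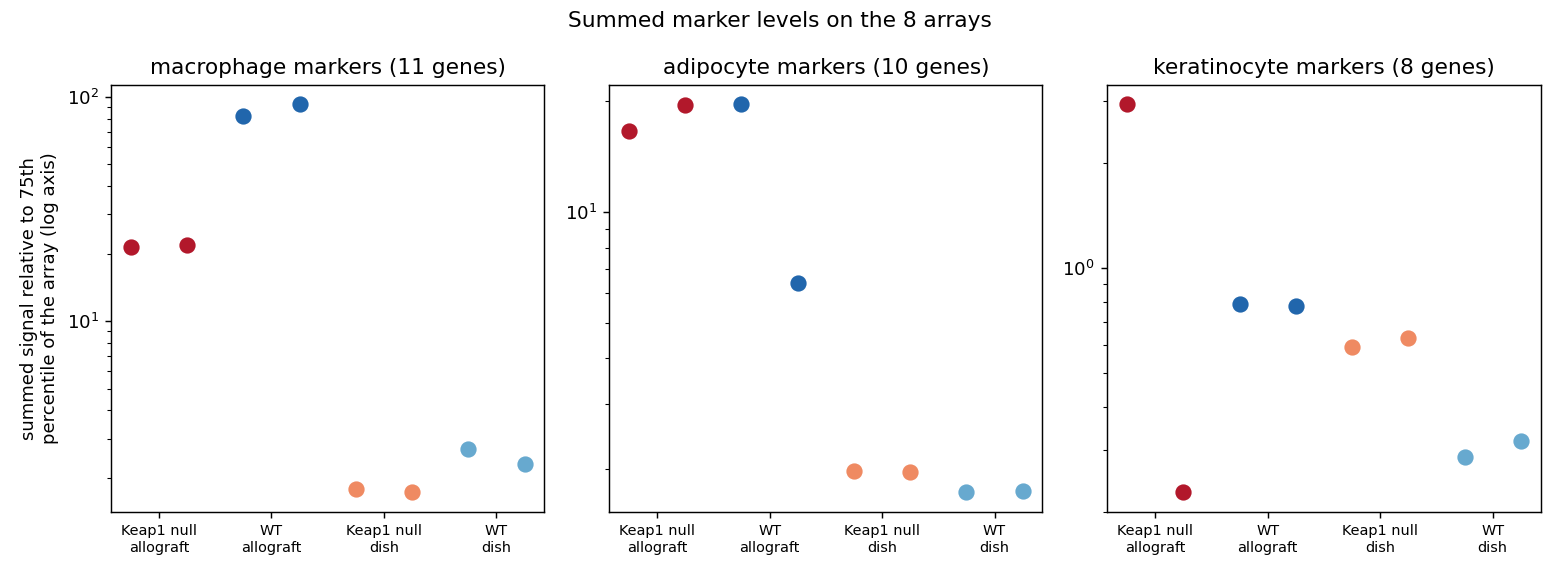
Summed level of macrophage, adipocyte and keratinocyte markers on each array (log axis, as a ratio to each array's 75th percentile), with the left point of each pair from replicate 1. Macrophage markers separate WT allografts (82.6 to 92.6) from Keap1 null allografts (21.4 to 21.8), while adipocyte markers differ between the WT allografts (19.6 and 6.39) and keratinocyte markers between the Keap1 null allografts (2.94 and 0.227).

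Gpx2 encodes the peroxidase best known from gut epithelium and is a known NRF2 target. On the scaled log2 level it lay at -0.36 and -0.45 in Keap1 null allografts, against -1.77 and -1.75 in WT allografts. It was -3.88 and -3.98 in Keap1 null dishes, against -4.38 and -3.81 in WT dishes. The allograft groups were fully separated, whereas in dishes the WT arrays lay on either side of the Keap1 null ones. Gpx2 was 2.56-fold higher in Keap1 null than in WT allografts (log2 fold change 1.36 ± 0.19 SE, limma adjusted p = 0.00237). In dishes no difference passed the test (0.17, 95% interval -0.30 to 0.63, adjusted p = 0.634). Its dish signal was dim, 78.0 to 90.1 in Keap1 null and 52.0 to 90.0 in WT, although well above background on all 4 arrays.

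Gpx2 also rose with growth as a tumour, 11.5-fold in Keap1 null cells (limma adjusted p = 2.91e-05, log2 fold change 3.53 ± 0.19 SE) and 5.05-fold in WT cells (adjusted p = 0.000122, 2.34 ± 0.19). Gpx2 is known from epithelia, and 8 keratinocyte markers summed to 2.94 and 0.227 in Keap1 null allografts against 0.788 and 0.778 in WT allografts. Lor made up most of the WT sums, at scaled log2 levels of -0.51 and -0.59, whereas Krt5, Krt14, Krt10 and Ivl were higher on both Keap1 null allografts than on both WT allografts. Krt5 lay at -0.71 and -4.70 in Keap1 null allografts, against -5.59 and -4.99 in WT allografts. In dishes Krt5 ran from -5.35 to -4.50, Krt14 from -4.48 to -3.85 and Krt10 from -6.02 to -5.37, well above background on every array. Keap1 null allograft replicate 2 thus lay within the dish range for Krt5 and Krt14 (-4.10) and close to it for Krt10 (-5.35). Only replicate 1 lay far above dishes for these keratins. Trp63 was well above background on both WT allografts (-6.65 and -6.23) and on 1 of 2 Keap1 null allografts (-6.34 and -8.50). Of the 6 keratinocyte markers tested, 1 was called higher and none lower in the Keap1 null tumours. Of all targets, 20.5% were called higher and 21.3% lower there. Ivl and Krt1 failed the background test in WT allografts and both dish groups, Dsg3 in Keap1 null allografts too. The sum of 5 neutrophil markers was 3.58 to 3.97 in Keap1 null allografts and 1.81 to 2.02 in WT allografts, against at most 0.0639 in dishes, although of the 4 tested 1 was higher and 1 lower in the Keap1 null tumours. Elane failed the background test in every group. The part of either marker list in the Gpx2 difference was not tested.

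The antioxidant response element is the sequence known to bind NRF2. The promoter window of each family member was searched for the core of that element, spelled TGACNNNGC, for the AP-1 site TGANTCA and for the hypoxia response element core ACGTG, on both strands. RefSeq gives 9 windows for the 6 genes, each from 250 bases before to 50 bases after a transcript start. None of the 9 held the antioxidant response element core or the AP-1 site, which occur in 12.4% and 7.81% of 32851 promoter windows of the same length. These matches describe letters in the window and nothing about binding. The windows of Gpx2 and Gpx8 are shown because these genes were higher in Keap1 null allografts, with capitals for any match to a searched motif.
Gpx2 promoter, chr12:76795505-76795804, minus strand, GRCm38.p6: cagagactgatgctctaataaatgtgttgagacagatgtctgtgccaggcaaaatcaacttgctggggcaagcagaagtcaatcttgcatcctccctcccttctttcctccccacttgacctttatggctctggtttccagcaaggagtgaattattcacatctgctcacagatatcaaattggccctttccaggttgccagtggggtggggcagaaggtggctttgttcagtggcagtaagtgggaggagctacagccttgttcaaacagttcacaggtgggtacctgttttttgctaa
Gpx8 promoter, chr13:113046339-113046638, minus strand, GRCm38.p6: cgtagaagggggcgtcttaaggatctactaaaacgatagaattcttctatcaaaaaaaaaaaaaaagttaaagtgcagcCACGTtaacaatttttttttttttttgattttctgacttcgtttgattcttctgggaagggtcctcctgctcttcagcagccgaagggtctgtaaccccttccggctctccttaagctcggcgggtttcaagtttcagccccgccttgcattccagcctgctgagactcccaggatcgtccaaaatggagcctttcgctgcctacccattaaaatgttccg
The Gpx8 window holds 1 match to the hypoxia response element core, on the opposite strand and starting 171 bases before the start site. That motif is found in 19.6% of all windows, and 1 further family member, Gpx1, has it. The Gpx2 window has no capitals because it holds none of the 3 motifs.

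Gpx8 encodes the membrane-bound peroxidase of the ER. Its scaled log2 level was 5.22 and 5.18 in Keap1 null allografts and 4.42 and 4.43 in Keap1 null dishes. In WT cells it was 3.69 and 3.78 in allografts and 4.15 and 4.09 in dishes. No array of any group overlapped another group, and the order was Keap1 null allograft, Keap1 null dish, WT dish, WT allograft. The Keap1 null tumours had 2.76-fold more Gpx8 than WT tumours (log2 fold change 1.46 ± 0.08 SE, limma adjusted p = 8.76e-05). In dishes it was 1.23-fold higher without passing the test (0.30 ± 0.08, adjusted p = 0.0589), and with slide, which is the same division as replicate number, as a block it passed (adjusted p = 0.0439).

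With growth as a tumour, Gpx8 rose 1.71-fold in Keap1 null cells (limma adjusted p = 0.000447, log2 fold change 0.78 ± 0.08 SE) and was 1.31-fold lower in WT cells (-0.39 ± 0.08, adjusted p = 0.00731). Relative to the median target these values were 0.75 and -0.37. Median scaling or no scaling cannot change them beyond rounding, because either moves every target of an array alike. The unshifted WT value was -0.0060 in the unscaled table (limma adjusted p = 0.983) and -1.41 with median scaling (adjusted p = 6.79e-05). In Keap1 null cells it was 0.81 in the unscaled table (adjusted p = 0.00909) and -0.089 with median scaling (adjusted p = 0.527). Both calls thus depended on the scaling. With quantile normalization the WT value turned to 0.27 relative to the median target, without a call. The interaction, which is the growth difference in Keap1 null cells minus that in WT cells, was 1.17 ± 0.12 (limma adjusted p = 0.00111). It kept its sign in all 17 alternatives that give an interaction, and its call ended in the unscaled table (0.81, adjusted p = 0.0732).

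Gpx7 encodes the soluble ER relative of Gpx8, and it differed in the other direction between the tumours. Scaled log2 levels were 0.45 and 0.48 in Keap1 null allografts, against 1.07 and 1.02 in WT allografts. In Keap1 null dishes they were -1.40 and -1.59, against -1.11 and -1.30 in WT dishes. Neither pair of groups overlapped. Keap1 null tumours had 1.5-fold less Gpx7 than WT tumours (limma adjusted p = 0.00798, log2 fold change -0.58 ± 0.11 SE), and the lower value in dishes did not pass the test (-0.29, 95% interval -0.56 to -0.02, adjusted p = 0.131). Allografts exceeded dishes 3.87-fold in Keap1 null cells and 4.75-fold in WT cells (log2 fold changes 1.95 ± 0.11 and 2.25 ± 0.11, limma adjusted p = 3.58e-05 and 1.9e-05). The growth difference of Gpx7 was not shown to depend on genotype (interaction -0.30, 95% interval -0.68 to 0.09, adjusted p = 0.208).

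Gpx1 encodes the abundant peroxidase of cytosol and mitochondria. Its scaled log2 level was 5.69 and 5.87 in Keap1 null allografts and 5.76 and 5.68 in Keap1 null dishes, against 5.81 and 5.75 in WT allografts and 5.23 and 5.004 in WT dishes. The WT dishes stood below the other 3 groups, which overlapped one another. Keap1 null dishes exceeded WT dishes 1.52-fold in Gpx1 (limma adjusted p = 0.0182, log2 fold change 0.60 ± 0.12 SE). That call ended without Keap1 null dish replicate 1 (adjusted p = 0.111), Keap1 null dish replicate 2 (0.0826) or WT dish replicate 2 (0.0775), and with arrays scaled to their medians (0.0952). In allografts the difference was -0.0016, with a 95% interval of -0.29 to 0.29 (adjusted p = 0.993).

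Between growths, WT allografts exceeded WT dishes 1.58-fold in Gpx1 (limma adjusted p = 0.0034, log2 fold change 0.66 ± 0.12 SE). Relative to the median target this was 0.68, which median scaling cannot change because it moves every target of an array alike. The unshifted value with median scaling was -0.36. In Keap1 null cells Gpx1 differed by 0.06 (95% interval -0.24 to 0.35, adjusted p = 0.709), or 0.03 relative to the median target. With median scaling the unshifted value there was -0.81 and was called (adjusted p = 0.00281).

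Gpx4 encodes the enzyme that reduces phospholipid hydroperoxides in membranes and protects cells from ferroptosis. Its scaled log2 level was 4.90 and 4.95 in Keap1 null allografts and 5.18 and 5.09 in Keap1 null dishes, against 5.17 and 5.09 in WT allografts and 5.60 and 5.38 in WT dishes. WT dishes were highest, Keap1 null allografts lowest, and the 2 groups between them overlapped. Its range across the 8 arrays was the narrowest of the family: the root mean square around its own mean was 0.21, against 3.12 for Gpx3. Only the growth difference in WT cells passed the test (limma adjusted p = 0.0243, log2 fold change -0.36 ± 0.11 SE), which was -0.34 relative to the median target. With quantile normalization it was 0.33 (adjusted p = 0.0308), or 0.45 relative to the median target, so its sign turned. Without WT allograft replicate 1, WT allograft replicate 2 or WT dish replicate 1 its adjusted p was 0.059, 0.104 and 0.112. Keap1 null and WT cells differed by -0.20 in allografts (adjusted p = 0.192, and -0.47 with adjusted p = 0.013 under quantile normalization) and by -0.36 in dishes (adjusted p = 0.0699, and 0.043 with slide as a block). RefSeq lists pseudogenes related to Gpx2 and Gpx4, and their contribution to the probe signals was not tested.

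**Figure D3:**
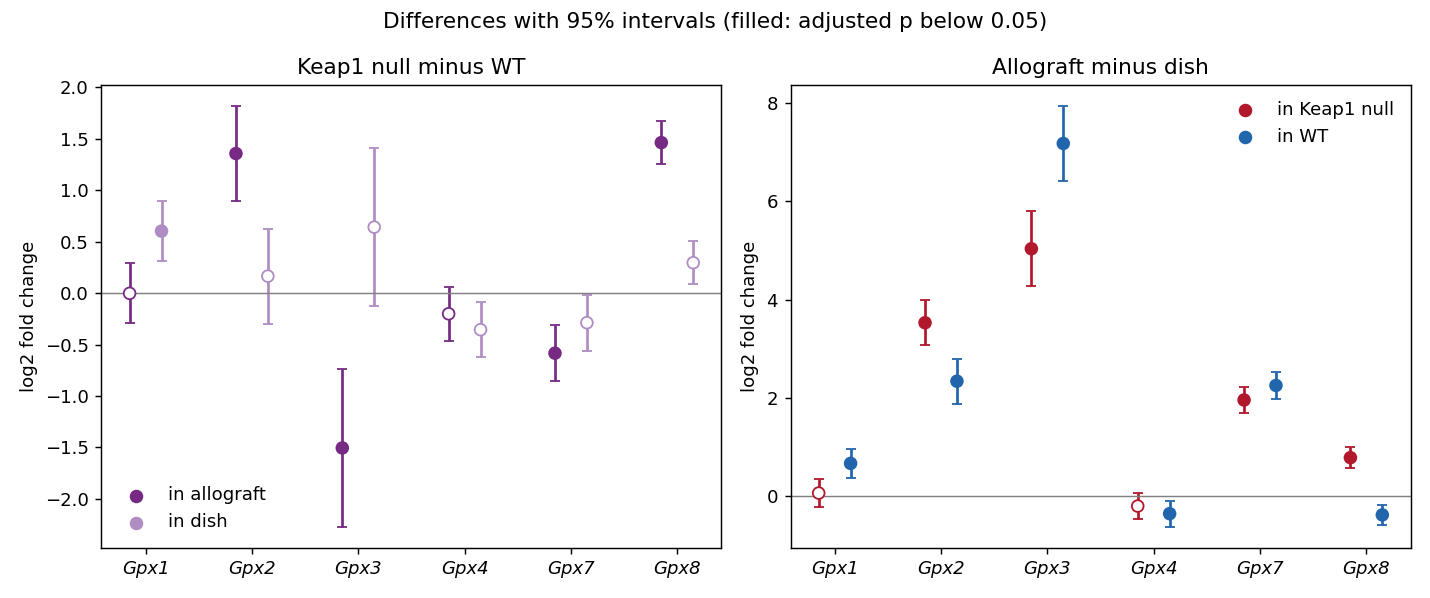
Log2 fold changes of the 6 genes with 95% intervals, for Keap1 null minus WT on the left and allograft minus dish on the right. Filled symbols passed an adjusted p of 0.05. In allografts Gpx2 and Gpx8 lie above 0 and Gpx3 and Gpx7 below it, while in dishes only Gpx1 is filled.

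Counted over the family, 4 of 6 genes differed between Keap1 null and WT allografts, Gpx2 and Gpx8 being higher and Gpx3 and Gpx7 lower, where 41.8% of all targets were called (20.5% higher and 21.3% lower). The median log2 fold change was -0.10, against 0.00 over all targets. In dishes 1 of 6, Gpx1, was called, where 21.1% of targets were (11.4% higher and 9.78% lower), with a median of 0.23 against -0.05 over all targets. With slide as a block 3 of 6 were called in dishes, where 28.4% of targets were. Within slide 1 and slide 2 the allograft differences were 1.41 and 1.30 for Gpx2, -1.69 and -1.32 for Gpx3, -0.62 and -0.55 for Gpx7, and 1.53 and 1.40 for Gpx8, and the dish difference of Gpx1 was 0.53 and 0.68.

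Allografts against dishes gave 4 of 6 calls in Keap1 null cells, all higher, where 64.9% of targets were called (35.8% higher and 29.1% lower), and 6 of 6 in WT cells, 4 higher and 2 lower, where 68.1% of targets were called (35.9% higher and 32.2% lower). Median scaling gave 3 higher and 2 lower in each line, where 80.9% of targets were called in Keap1 null cells and 84.2% in WT cells. Of those target calls 27.3% and 25.9% were higher. Gpx4 was then called lower in Keap1 null cells (-1.08, limma adjusted p = 0.000733). Quantile normalization gave 5 higher and 0 lower in each line, where 65.7% and 66.3% of targets were called. The family medians were 1.36 and 1.45, against 0.03 and -0.02 over all targets. Scaling to the array median moved the median target to -0.84 in Keap1 null cells and -1.04 in WT cells. It moves every target of an array alike, so the members' values relative to the median target stay the same by arithmetic. Gpx2, Gpx3 and Gpx7 rose in both lines under each of the 4 scalings tried, with log2 fold changes of at least 1.09 in Keap1 null cells and 1.23 in WT cells. Of 10 fibroblast markers, 9 were also higher and 1 lower in allografts than in dishes in each line, and their part in these rises was not tested. The comparisons share arrays, so their counts are not independent of one another.

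**Figure D4:**
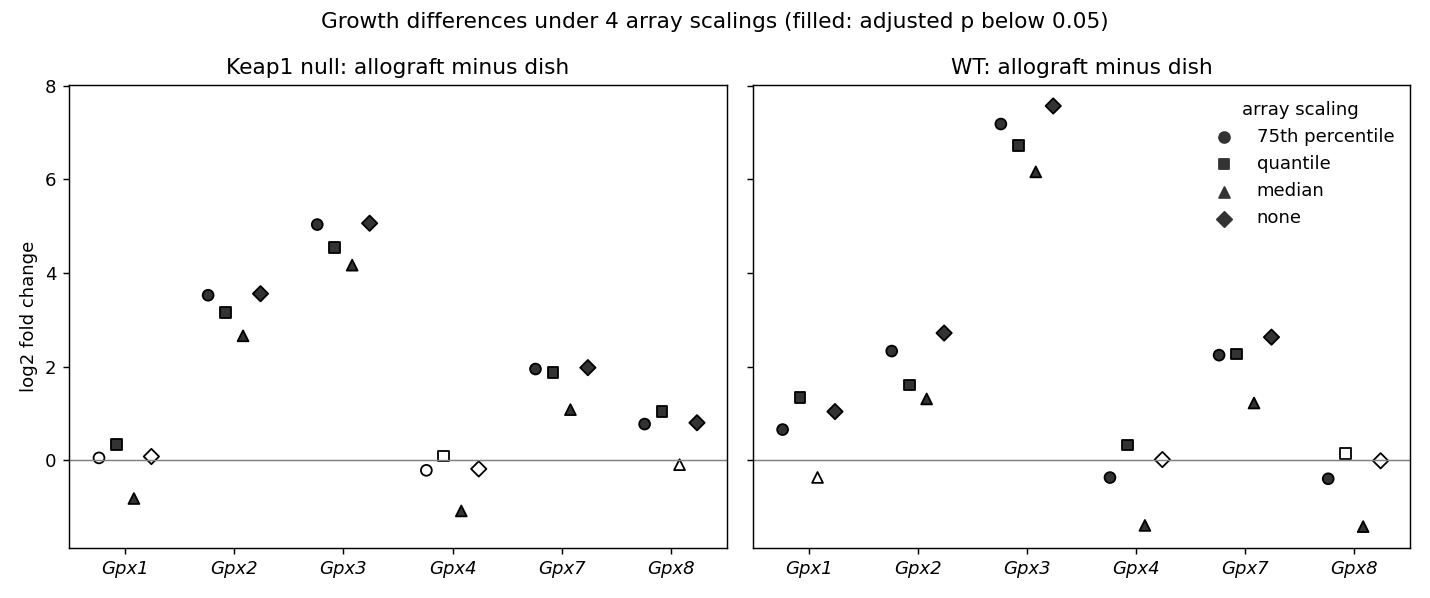
Log2 fold changes between allografts and dishes under 4 ways of scaling arrays, for Keap1 null cells on the left and WT cells on the right. Filled symbols passed an adjusted p of 0.05. The values of Gpx2, Gpx3 and Gpx7 stay above 0 under each scaling, whereas those of Gpx1, Gpx4 and Gpx8 cross 0 in at least 1 of the lines.

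The growth difference itself depended on genotype for 4 of 6 genes, where 32.9% of targets were called (15.8% higher and 17.0% lower). It was larger in Keap1 null than in WT cells for Gpx2 (interaction 1.19 ± 0.27 SE, limma adjusted p = 0.0188) and Gpx8. It was smaller for Gpx3 (-2.15 ± 0.44, adjusted p = 0.0141, and -1.49 with normexp) and Gpx1 (-0.60 ± 0.17, adjusted p = 0.0396). With median scaling the Gpx1 interaction was -0.45 without a call (limma adjusted p = 0.175). Without the filter on dim probes it was not called either (adjusted p = 0.0734). The Gpx1 call ended in 6 of 8 fits that left out 1 array, and that of Gpx2 in 5 of 8 and in the unscaled table (adjusted p = 0.176). That of Gpx3 ended without Keap1 null dish replicate 1 (adjusted p = 0.0503).

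Genes related to the peroxidases were taken from lists chosen for their function, with earlier results of these data known. For these lists and those below, counts are of called genes. Of all targets, 20.5% were called higher and 21.3% lower between allografts, and 11.4% and 9.78% between dishes. For allografts against dishes these shares were 35.8% and 29.1% in Keap1 null cells, and 35.9% and 32.2% in WT cells. Of 13 genes of glutathione synthesis and recycling, 12 were higher and 1 lower in Keap1 null tumours than in WT tumours, with a median of 1.89. The 12 include Chac1, which degrades glutathione and was 4.81-fold higher (log2 fold change 2.27, limma adjusted p = 0.000349). Slc7a11, the cystine importer, was 278-fold higher (log2 fold change 8.12, limma adjusted p = 6.37e-06), and Gclc, the catalytic subunit of the enzyme that starts glutathione synthesis, was 9.92-fold higher (3.31, adjusted p = 2.71e-05). In dishes 6 were higher and 2 lower, with a median of 0.25. Of these, Slc7a11 was 16.2-fold higher (limma adjusted p = 6.02e-05), and Chac1 was 4.37-fold lower (adjusted p = 0.00106). In WT cells 10 of the 13 were lower in allografts than in dishes and none higher, with Chac1 16.9-fold and Gclm, the modifier subunit, 3.58-fold lower. In Keap1 null cells 7 were higher and 2 lower in allografts, with Slc7a11 7.28-fold higher. Ggt1, which cleaves extracellular glutathione, was also called higher there, and no fold is given because it was not well above background in Keap1 null dishes.

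Of 15 other enzymes that remove peroxide or superoxide, 11 were higher and 2 lower in Keap1 null tumours than in WT tumours, with a median of 0.90. Srxn1, which repairs overoxidised peroxiredoxins, was 4.89-fold higher, and Txnrd1, the cytosolic thioredoxin reductase, was 4.15-fold higher (limma adjusted p = 6.11e-05 and 7.09e-05). In dishes 5 were higher and 1 lower, with catalase (Cat) 2.06-fold and Srxn1 1.82-fold higher (adjusted p = 0.00918 and 0.00511). Beside these medians of 1.89 and 0.90 in allografts, that of the 6 glutathione peroxidases was -0.10.

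Selenium supply limits the selenocysteine-containing peroxidases. Of 9 genes of selenium handling and selenoprotein synthesis, 5 were lower and 1 higher in Keap1 null than in WT allografts. Scly, which frees selenium from selenocysteine, was 2.18-fold lower and Lrp8, a receptor for selenoprotein P, was 2.63-fold higher (limma adjusted p = 0.000679 and 0.000175). In allografts against dishes 7 of 9 were lower and none higher in each line. Of all targets, 29.1% were called lower in Keap1 null cells and 32.2% in WT cells. In Keap1 null cells Scly and Sepsecs, which makes selenocysteine on its transfer RNA, were 2.05-fold and 1.98-fold lower. In WT cells Sephs2, which makes selenophosphate, was 3.1-fold lower.

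Of 15 other selenoproteins, 4 were higher and 5 lower in Keap1 null tumours than in WT tumours. The largest differences were those of the deiodinases Dio2, 16-fold higher, and Dio3, 3.71-fold higher (limma adjusted p = 3.15e-05 and 0.00468). Selenop, the secreted carrier of selenium, was 3.51-fold lower and shared the order of group means of Gpx3, whose dish pair was not separated by the test. The fibroblast markers Col1a2, Col3a1, Pdgfrb, Thy1, Lum and Fap also had that order of means, while Col1a1, Pdgfra, Vim and Dcn did not. Selenop lay at scaled log2 levels of 3.29 and 3.59 in Keap1 null allografts and -1.47 and -1.46 in Keap1 null dishes, against 5.13 and 5.37 in WT allografts and -3.47 and -3.37 in WT dishes. It was named because its growth changes, 29.9-fold in Keap1 null cells and 407-fold in WT cells, were among the 2 largest of its list (limma adjusted p = 4.26e-06 and 8.98e-07). Dio3 was the other.

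Of 10 measured genes of oxidative folding in the ER, 6 were higher and 1 lower in Keap1 null tumours than in WT tumours, and 1 was lower in dishes. Ero1a, the oxidase that generates hydrogen peroxide while recharging protein disulphide isomerases, was 3.01-fold higher in Keap1 null allografts (limma adjusted p = 0.000223) and 2.03-fold lower in Keap1 null dishes (adjusted p = 0.00278). Ero1a lay at scaled log2 levels of 2.45 and 2.39 in Keap1 null allografts and 1.12 and 1.09 in Keap1 null dishes, against 0.98 and 0.67 in WT allografts and 2.15 and 2.11 in WT dishes. Ero1a thus differed in the same direction as Gpx8 in allografts, while in dishes Gpx8 had a higher level in Keap1 null cells without a call. Of 12 tested genes of lipid peroxidation and ferroptosis, 7 were higher and 2 lower in Keap1 null allografts, and 5 higher and 2 lower in Keap1 null dishes. The prostaglandin synthase Ptgs2 was 85.2-fold higher and the lipoxygenase Alox5 9.37-fold lower in Keap1 null allografts, and the iron exporter Slc40a1 (well above background on 1 of 2 WT dish arrays) was 51.6-fold and Hmox1, which degrades heme, 2.55-fold higher in Keap1 null dishes (limma adjusted p = 8.62e-06, 2.71e-05, 2.27e-05 and 0.000891).

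**Figure D5:**
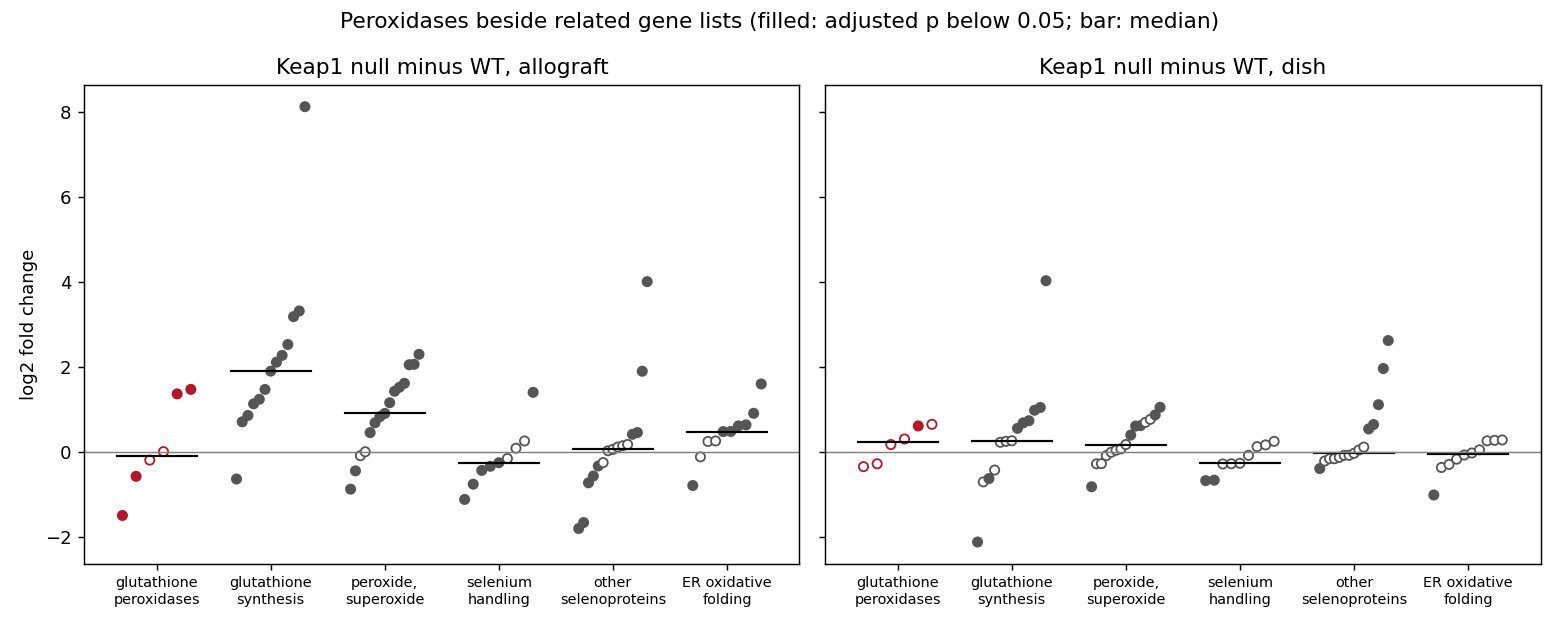
Log2 fold changes of Keap1 null minus WT cells for the 6 glutathione peroxidases and the genes of 5 related lists, in allografts on the left and dishes on the right. Each point is a gene, filled where adjusted p was below 0.05, and bars are medians. In allografts the peroxidase median is -0.10, beside 1.89 for glutathione synthesis and 0.90 for the other peroxide and superoxide enzymes.

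The genes whose pattern across the 8 arrays was most like each family member were ranked by the root mean square difference of log2 levels, each centred on its own mean. For Gpx3 these were Vsir and Fpr2 (0.25 and 0.27, where Gpx3 itself spread by 3.12). For Gpx2 they were Olfr1419 and Nfkbiz (0.19 and 0.20, own spread 1.55), and for Gpx7 Col5a3 and Sap25 (both 0.13, own spread 1.08). Gpx8 was closest to Gabarapl1 and Panx1 (0.05 and 0.07, own spread 0.54). Gpx1 was closest to Atg10 and Clip2 (0.08 and 0.09, own spread 0.29), and Gpx4 to 1110065P20Rik and Josd2 (both 0.05, own spread 0.21).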

How the data were processed

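The deposited scanner files, 1 per array, give the software as Feature Extraction 10.7.3.1 (Agilent). Their processed signal is an intensity after subtraction of background and a spatial trend, unscaled between arrays, per the file headers. The value table the authors deposited differs from it by at most 0.496%. Using R 4.3.3 and limma 3.58.1, log2 processed signals were centred on the 75th percentile of each array, control and outlier spots were dropped, and repeated spots were averaged. Of 41174 probes, 30355 passed the filter, which asked for signal well above background on 2 of 2 arrays in 1 or more groups. Accessions were matched to the RefSeq table of GRCm38.p6 for names (the headers give mm9). The brightest passing probe stood for its gene, giving 22919 targets. A single limma model with 4 group means, all 8 arrays and 4 residual degrees of freedom was used, and a call is a Benjamini-Hochberg adjusted p below 0.05 over all targets. An exact permutation of 2 against 2 arrays cannot go below 0.33.

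Genes named are the 6 family members, Keap1 (Nfe2l2, also in the rule, gave an adjusted p of 0.743 in dishes and of 0.00529 in allografts, where Keap1 null exceeded WT 1.52-fold), up to 2 called genes with the largest change per list and comparison, and the 2 most alike genes per member. Members and lists were chosen with earlier results of these data known. One slide held replicate 1 of every group and the other slide replicate 2, per the file headers. Deviations of same-numbered arrays correlated between groups (r 0.247 to 0.429 across targets), so slide was tried as a block. Other alternatives changed scaling, background correction, filter, probe summary and moderation, or left out arrays. Promoters were taken from RefSeq, GRCm38.p6.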

Additional observations from a re-analysis of the deposited data

Results flagged for a closer look

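The growth difference (allograft minus dish) differed between Keap1 null and WT cells for 4 family members by the interaction term of the limma fit, and these results stand out for that reason. The interaction, on the log2 scale, was -2.15 for Gpx3, which was higher in allografts than in dishes in both lines. It was 1.19 for Gpx2, also higher in allografts in both lines. It was 1.17 for Gpx8, which was higher in Keap1 null allografts and lower in WT allografts than in the matching dishes. It was -0.60 for Gpx1, whose growth difference passed the test in WT cells only. Since 32.9% of all targets had a called interaction, 4 of 6 is a description of these genes and sets them apart from no other group.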

How the results depend on the processing

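Of 30 differences of the 6 genes, 19 were called, and 9 of them were called with the same sign in each of the 18 alternatives that gave a value: Gpx2, Gpx7 and Gpx8 between the allografts, and Gpx2, Gpx3 and Gpx7 between allograft and dish in both lines. The family count in dishes (1) was 2 with quantile normalization (4117 of 22919 targets called), 0 with arrays scaled to their medians (21.4% of targets) or with only the compared arrays fitted (15.1%), and 3 with an intensity trend (24.5%) or only probes well above background on all arrays (27.1%). With the replicate block, which is slide, it was 3 (28.4%), and under that block no other family count moved by over 1.5 times. The family count for the interaction (4, where 32.9% of targets were called) was 2 in the unscaled table (24.2%). Family counts in dishes and for the interaction also changed with 1 array left out. Each such fit called a smaller share of all targets in both. Targets called in dishes (4843) were 2620 in the unscaled table, 2844 with normexp background correction (added after seeing the data, on median spot signals) and 2372 to 4450 with 1 array left out. Directions turned as follows. Median scaling and the unscaled table move every target of an array alike, so values relative to the median target kept their sign in both. The cause of the other turns was not tested. With quantile normalization Gpx4 was 0.10 in Keap1 null growth, 0.33 in WT growth and -0.23 in the interaction, and Gpx8 was 0.15 in WT growth. With median scaling Gpx1 was -0.81 in Keap1 null growth and -0.36 in WT growth, and Gpx8 was -0.089 in Keap1 null growth. In the unscaled table Gpx4 was 0.020 in WT growth and -0.20 in the interaction. With 1 array left out Gpx1 ran from -0.093 to 0.090 between allografts and from -0.036 to 0.15 in Keap1 null growth, and Gpx2 from -0.12 to 0.45 between dishes. Scaling also moved the share of calls that were higher: in dishes it was 53.7%, and 37.3% with median scaling or 76.4% unscaled. It was 49.0% between allografts (30.5% unscaled), 55.2% in Keap1 null growth (27.3% with median scaling), 52.7% in WT growth (25.9% with median scaling, 78.5% unscaled) and 48.2% for the interaction (23.3% unscaled). Dim signal limits Gpx3 in dishes, and 2 arrays per group limit the precision of every value.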
